A study of Homo sapiens with 3 samples.

Results

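The miR-193 and miR-365 microRNAs (miRNAs) were examined in small RNA libraries of a human hepatocellular carcinoma (HCC) cell line. They were chosen by name, as all listed names of miR-193a, miR-193b, miR-365a and miR-365b with any arm, which gave 8 of 1921 names. hsa-miR-365a-3p and hsa-miR-365b-3p held the same counts in every library and are counted once, as miR-365-3p, so 7 members remain. The libraries came from 3 strains of HCCLM3, an HCC line established from metastatic xenografts, all cultured in DMEM. The parent was labelled as low in metastasis, although the study's text calls its parental line, a derivative of HCCLM3 carrying red fluorescent protein, highly metastatic. Subclone1 was labelled as metastasizing to the lung, and subclone2 as metastasizing to both lung and celiac lymph node. The study derived lines from lung and lymph node metastases in mice, and monoclonal lines from single cells of these. The labels leave unstated to which of these lines the subclones correspond, so whether each was grown from a single cell is not given. Each strain had 1 library, so no test between strains was possible, and every interval below covers counting error only. Values for several libraries are given in the order parent, subclone1, subclone2 unless stated otherwise.

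The libraries held 3570864 to 7902438 counts. Levels are given as counts scaled to a library total of 1000000 (CPM), and a count of 0 allowed up to 0.380 to 0.840 CPM. The hepatocyte markers examined, 3 names only, were low or absent. hsa-miR-122-5p, the dominant miRNA of hepatocytes, had only 3.94 to 6.71 CPM, and hsa-miR-122-3p and hsa-miR-885-5p had 0 counts in every library. The 4 epithelial markers of the miR-200 family summed to 73.1, 107.8 and 128.5 CPM, and their part in the results below was not tested. The 5 markers of blood cells summed to at most 1.68 CPM, the 2 of fibroblasts or smooth muscle to at most 1.01, and the endothelial marker hsa-miR-126-3p to at most 0.438.

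A miRNA hairpin is cut into a 5p and a 3p strand, and the strand that stays in the Argonaute protein finds its target mRNAs mainly through its seed, the bases from position 2 to 8. miR-193a-3p and miR-193b-3p share a seed and are known repressors of growth and invasion genes, among them MCL1 and the urokinase gene PLAU. miR-365-3p is encoded beside them and is known to repress the lung transcription factor gene NKX2-1 and, together with miR-193b, to promote the brown fat cell fate. Targets of the 5p strands are not covered here.

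The genes form a duplicated cluster. The mature sequences (RefSeq, GRCh38.p14; all 8 names were found) are shown because the sharing of seeds and of whole strands decides which levels can be told apart. The seed is in capitals.
hsa-miR-193a-3p: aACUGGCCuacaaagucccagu
hsa-miR-193b-3p: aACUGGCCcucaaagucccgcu
hsa-miR-193a-5p: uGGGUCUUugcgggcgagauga
hsa-miR-193b-5p: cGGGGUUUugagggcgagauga
hsa-miR-365a-5p: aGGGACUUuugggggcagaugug
hsa-miR-365b-5p: aGGGACUUucaggggcagcugu
hsa-miR-365a-3p: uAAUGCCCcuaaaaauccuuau
hsa-miR-365b-3p: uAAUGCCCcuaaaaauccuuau

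The 3p strands of miR-193 fall into a single seed group, with the complementary site GGCCAGU, and no other mature miRNA of the RefSeq table had this seed. They differ at 4 of 22 positions outside the seed (U9C, A10U, A20G and G21C, counted from the 5′ end, with the base of miR-193a first). The 5p strands of miR-193 also differ at 4 positions (U1C, U5G, C6U and C11A), and as 2 of these changes lie inside the seed, each has a seed of its own. The 5p strands of miR-365 share their seed and differ at 3 of the 22 positions compared (U10C, G11A and A19C, with the base of miR-365a first). The 3p strands of miR-365 are identical over 22 bases, so their reads could come from either gene. No other detected miRNA of 717 searched shared more than 9 consecutive bases with a member.

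The hairpins are shown with both mature strands in capitals, since they carry the strands compared below. MIR193B (chr16:14303967-14304049, plus strand) and MIR365A (chr16:14309285-14309371, plus strand) are separated by 5235 bases. Both lie in introns of all 4 spanning transcripts of the long non-coding host gene MIR193BHG (GENCODE release 29), 37194 and 42512 bases from the nearest protein-coding gene, MRTFB.
MIR193B: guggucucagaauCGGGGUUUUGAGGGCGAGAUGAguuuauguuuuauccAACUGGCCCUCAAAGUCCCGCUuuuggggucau
MIR365A: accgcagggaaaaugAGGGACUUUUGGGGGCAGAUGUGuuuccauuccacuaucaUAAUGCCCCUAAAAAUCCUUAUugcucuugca

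On chromosome 17 the order is the same, with 15327 bases between MIR193A (chr17:31559996-31560083, plus strand) and MIR365B (chr17:31575411-31575521, plus strand). MIR193A lies in no annotated host gene, and MIR365B overlaps an exon of the long non-coding gene AC003101.1. The nearest protein-coding gene is RAB11FIP4. These positions come from the annotation, since the count tables hold names only.
MIR193A: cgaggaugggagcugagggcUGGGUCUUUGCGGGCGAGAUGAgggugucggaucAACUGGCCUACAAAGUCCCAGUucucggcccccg
MIR365B: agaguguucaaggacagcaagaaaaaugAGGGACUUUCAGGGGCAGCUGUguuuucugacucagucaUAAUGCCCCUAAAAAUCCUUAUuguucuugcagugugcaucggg

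All 7 members were detected in every library, at moderate levels. Together they held 9675 counts in the parent library (1224 CPM, 95% interval 1200.0 to 1249). The sum was 4863 counts in that of subclone1 (1362 CPM, 1324 to 1401) and 4614 in that of subclone2 (1010.1 CPM, 981 to 1040). Their sum was thus highest in the lung-tropic strain and lowest in the strain with dual tropism, and the counting intervals did not overlap. Relative to the parent its log2 ratio was 0.15 in subclone1 and -0.28 in subclone2. Beside all miRNAs averaging at least 10 CPM, these stood 120th of 192 and 73rd of 187 from the lowest. After subtraction of the median of those miRNAs they were 0.14 and -0.12. hsa-miR-193b-5p led in each library with 43.1%, 44.9% and 43.0% of the members' reads. It ranked 44th, 42nd and 47th among all names, and the lowest member, hsa-miR-193a-3p, ranked 129th, 107th and 113th. Such ranks compare read counts only, because adapter ligation favours some RNA ends over others.

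hsa-miR-193b-5p had 4171, 2184 and 1985 counts (528, 612 and 435 CPM). The other strand, hsa-miR-193b-3p, which carries the known repressor seed, had 1570, 899 and 646 counts (198.7, 252 and 141.4 CPM). Both strands of MIR193B were therefore highest in subclone1, lower in the parent and lowest in subclone2. From MIR193A, hsa-miR-193a-5p had 888, 430 and 412 counts (112, 120.4 and 90.2 CPM). hsa-miR-193a-3p had 233, 201 and 176 counts (29.5, 56.3 and 38.5 CPM). This strand shared the peak in subclone1 but, unlike the other miR-193 strands, had its lowest level in the parent.

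Among the miR-365 strands, hsa-miR-365a-5p from chromosome 16 had 1261, 454 and 515 counts (159.6, 127 and 113 CPM). hsa-miR-365b-5p from chromosome 17 had 934, 410 and 644 (118, 115 and 140.98 CPM). The copies were thus highest in different strains, miR-365a-5p in the parent and miR-365b-5p in subclone2. The shared strand, hsa-miR-365a-3p and hsa-miR-365b-3p, had 618, 285 and 236 counts (78.2, 79.8 and 51.7 CPM), with the parent and subclone1 close together and subclone2 below both. In the order of levels, hsa-miR-365b-5p and hsa-miR-193a-5p had overlapping counting intervals in the parent, as had these 2 and hsa-miR-365a-5p in subclone1, and hsa-miR-193b-3p and hsa-miR-365b-5p in subclone2.

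**Figure D1:**
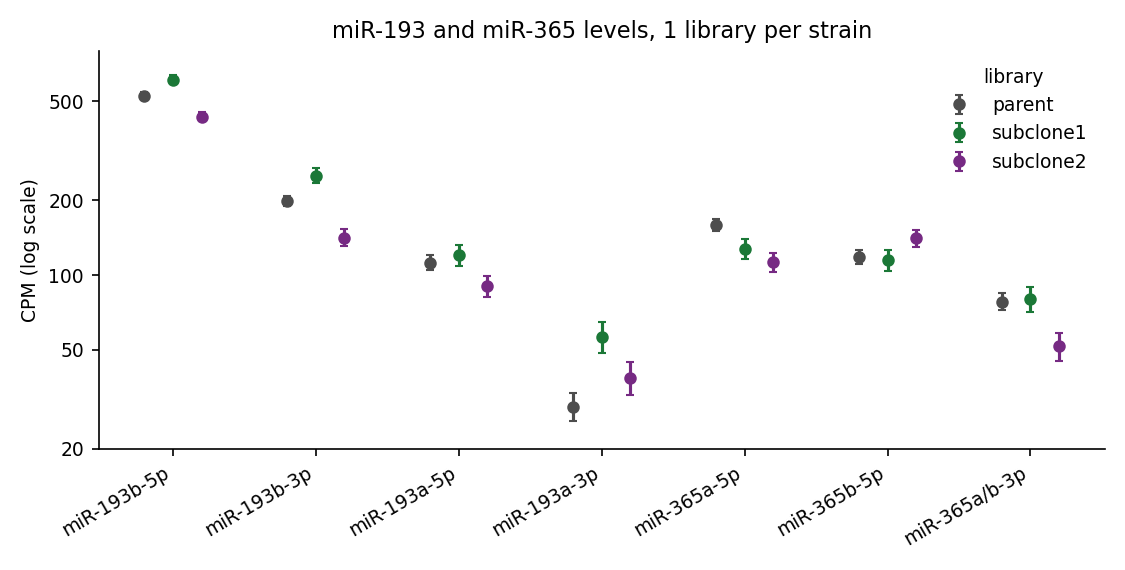
Level of each member (CPM, log scale) in the parent, subclone1 and subclone2 libraries, with exact 95% intervals for counting error as bars. hsa-miR-193b-5p lies highest in every library, at 435 to 612 CPM, and hsa-miR-193a-3p is the lowest member throughout, at 29.5 to 56.3 CPM.

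Subclone1, labelled as metastasizing to the lung, and the parent were compared first. A miRNA was called when its CPM differed at least 2-fold and the exact 95% interval of the ratio excluded 1, among miRNAs whose mean over the libraries compared was 10 CPM or more. No member of 7 was called in either direction, beside 13% of all 192 miRNAs kept. The nearest to the threshold was hsa-miR-193a-3p, 1.91-fold higher in subclone1 (log2 ratio 0.93, interval 0.65 to 1.21), which stood 169th of 192 from the lowest ratio. With a threshold of 1.5-fold it was the single member called, beside 29.2% of all kept miRNAs. For the MIR193B strands it was 0.34 (hsa-miR-193b-3p, 0.22 to 0.46) and 0.21 (hsa-miR-193b-5p, 0.14 to 0.29). For hsa-miR-193a-5p it was 0.10 (-0.07 to 0.27).

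The miR-365 strands differed from this. The lowest value was -0.33 for hsa-miR-365a-5p (interval -0.49 to -0.17). hsa-miR-365b-5p had -0.04 (-0.21 to 0.13), and miR-365-3p 0.03 (-0.18 to 0.23), a sign that turned with the other scalings (-0.04 to -0.03). The median over the members was 0.10, compared with 0.02 over all kept miRNAs.

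The strain with dual tropism was then compared with the same parent library, so that both comparisons rest on it. No member of 7 was called at 2-fold, beside 10.7% of the 187 kept miRNAs. At 1.5-fold a single member passed, miR-365-3p, beside 26.7% of all. Its log2 ratio was -0.60 (interval -0.82 to -0.38) and became -0.43 with TMM scaling, which no longer passes 1.5-fold. Over all kept miRNAs the log2 ratios had a median of -0.15, which TMM scaling moved by 0.17, and 64.2% lay below 0 (48.7% with TMM). Of the members 5 lay below 0 with either scaling.

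The strands made only on chromosome 16 had log2 ratios of -0.50 (hsa-miR-365a-5p, -0.65 to -0.35), -0.49 (hsa-miR-193b-3p, -0.62 to -0.36) and -0.28 (hsa-miR-193b-5p, -0.36 to -0.20). After subtraction of the median of all kept miRNAs they remained lower, at -0.35, -0.34 and -0.13, as did miR-365-3p, at -0.44. On chromosome 17, hsa-miR-193a-3p had 0.39 (0.10 to 0.67) and hsa-miR-365b-5p 0.25 (0.11 to 0.40), or 0.54 and 0.41 after that subtraction. hsa-miR-193a-5p, also from chromosome 17, had -0.32 (-0.49 to -0.15), or -0.16 relative to the median, close to hsa-miR-193b-5p.

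Subclone2 was also compared with subclone1, from which its label differs by metastasis to the celiac lymph node. With 1 library each, tropism cannot be told apart from other differences between the strains. Again no member of 7 was called at 2-fold, beside 5.76% of 191 kept miRNAs. At 1.5-fold 2 members were called, both lower in subclone2, beside 18.8% of all. They were hsa-miR-193b-3p, at -0.83 (interval -0.98 to -0.68, 15th of 191 from the lowest), and miR-365-3p, at -0.63 (-0.88 to -0.37, 29th). With TMM scaling these became -0.60 and -0.39, so that miR-365-3p no longer passed 1.5-fold, nor did it with the other scalings (-0.48 and -0.41). The other miR-193 strands were lower in subclone2 as well, at -0.55 (hsa-miR-193a-3p, -0.85 to -0.25), -0.49 (hsa-miR-193b-5p, -0.58 to -0.40) and -0.42 (hsa-miR-193a-5p, -0.62 to -0.22).

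The 5p strands of miR-365 did not share this. hsa-miR-365b-5p had 0.30 (0.12 to 0.48). The value of hsa-miR-365a-5p, -0.17 (-0.36 to 0.01), changed sign with TMM (0.06) and median-of-ratios scaling (0.04). Over the members the median was -0.49 and over all kept miRNAs -0.17, which TMM scaling moved by 0.23. Below 0 lay 6 of 7 members and 66.5% of all kept miRNAs, and with TMM 5 of 7 members and 42.4% of all.

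As miR-193a-3p and miR-193b-3p share a seed, their sum was also followed. It was 228 CPM (interval 218 to 239), 308 CPM (290.1 to 327) and 179.9 CPM (168 to 192.7), so that the strains were ordered as by miR-193b-3p, its larger part. Subclone2 stood at a log2 ratio of -0.78 from subclone1 (interval -0.91 to -0.64), or -0.61 after subtraction of the median of all kept miRNAs.

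**Figure D2:**
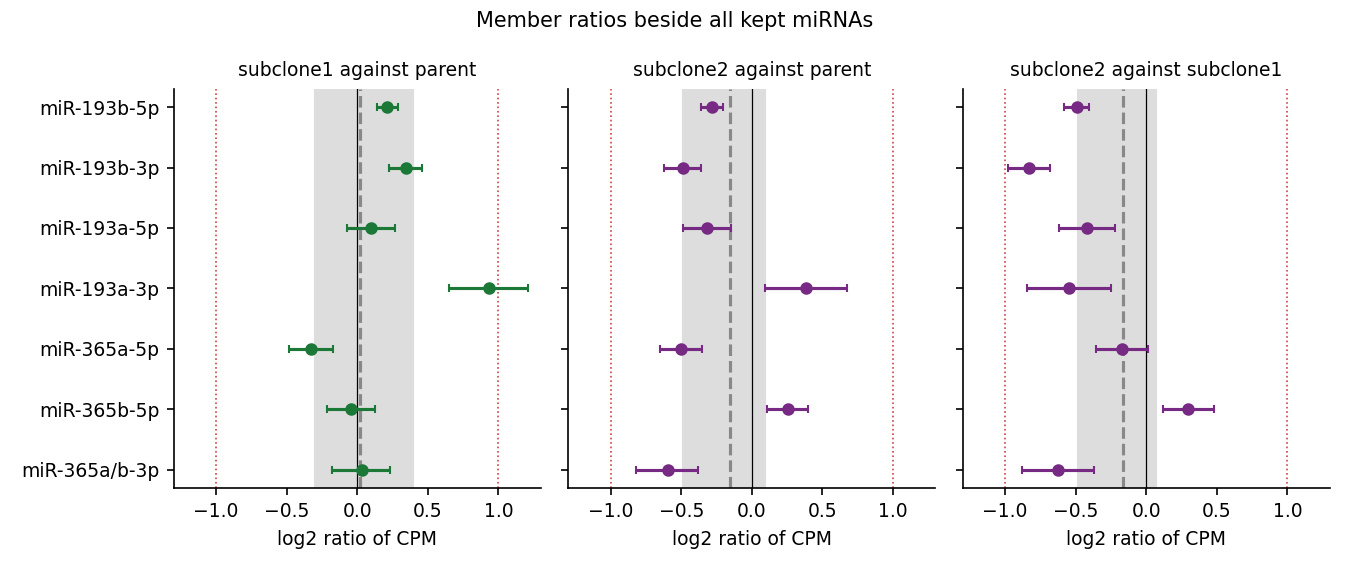
Log2 ratio of CPM of each member in the 3 comparisons, with exact 95% counting intervals. The grey band spans the interquartile range of all kept miRNAs, the dashed line is their median, and the dotted lines mark the 2-fold threshold, which no member's point passes.

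The reads of the 2 strands of a hairpin were compared next. A ratio of strands within a library is free of library scaling, but whether adapter ligation favoured the same strands equally in each library was not tested. In MIR193A the 5p strand held 79.2% of the reads of both strands (95% interval 76.7 to 81.6), then 68.1% (64.4 to 71.8) and 70.1% (66.2 to 73.7). The parent thus lay above both subclones without overlap, and the subclones overlapped. The odds of 5p against 3p reads in subclone1 were 0.562 times those of the parent (interval 0.447 to 0.705), and in subclone2 0.614 times (0.486 to 0.777). Of all hairpin names with both strands listed and at least 10 CPM on average, leaving out miR-365a and miR-365b because of their shared strand, 6 differed from the parent by at least as many percentage points in subclone1 as miR-193a (-11.1 points), miR-193a included, and 8 in subclone2 (-9.15 points). The median absolute difference over these names was 0.762 and 0.576 points. That median includes names with nearly all reads on 1 strand, such as hsa-miR-21 (99.9% 5p in the parent). Their shares move by fewer points for a given change in odds. The names that moved further than miR-193a in subclone1 had intermediate shares in the parent. They were hsa-miR-625 (31.3 points), hsa-miR-1277 (-16.0), hsa-miR-339 (13.7), hsa-miR-25 (-12.9) and hsa-miR-23b (-12.1).

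In MIR193B the 5p share was 72.7% (71.5 to 73.8), 70.8% (69.2 to 72.4) and 75.4% (73.8 to 77.1). The order of the strains therefore differed from that in MIR193A, with the highest 5p share in subclone2. The odds in subclone2 were 1.16 times those of the parent (interval 1.04 to 1.29) and 1.26 times those of subclone1 (1.12 to 1.43). For subclone1 over the parent the interval held 1 (0.914, 0.829 to 1.01). An interval that excluded 1 was found in 23.6% of these hairpin names for subclone1 against the parent, 21.7% for subclone2 against the parent, and 22.6% for the subclones against each other. On this measure miR-193a met the criterion in the 2 comparisons with the parent and miR-193b in the 2 with subclone2.

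For miR-365 the 5p strands of both genes were summed, since the 3p strand cannot be divided between them. They held 78.0% (76.5 to 79.5), 75.2% (72.6 to 77.7) and 83.1% (81.0 to 85.0) of the miR-365 reads. As in MIR193B, subclone2 had the highest share. The shares take the count of either 3p name as the whole, and if the reads had been divided between the names they would be 64.0, 60.3 and 71.1%. Its odds were 1.38 times those of the parent (1.17 to 1.64) and 1.62 times those of subclone1 (1.33 to 1.98). In every library, and with either count of miR-365-3p, 5p reads thus outnumbered 3p reads in all 3 sets. Whether this came from strand abundance or from adapter ligation, which favours some RNA ends, was not tested. A 5p majority was not particular to these sets, since the median 5p share over the hairpin names above was 84.3% in the parent.

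**Figure D3:**
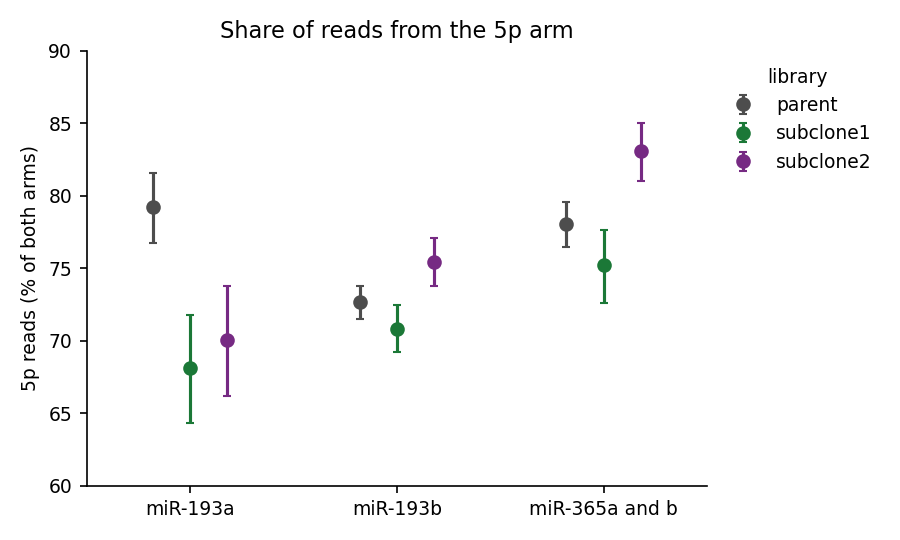
Share of 5p reads among the reads of both strands (%, axis from 60 to 90) for miR-193a, miR-193b and the summed miR-365 genes, with exact 95% intervals. The parent lies highest for miR-193a, at 79.2%, and subclone2 highest for the other two, at 75.4% and 83.1%.

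Reads of the copies on chromosomes 16 and 17 could be compared wherever the strands differ in sequence. hsa-miR-193b-5p had 4.70 times the reads of hsa-miR-193a-5p in the parent library (interval 4.37 to 5.06), then 5.08 (4.58 to 5.65) and 4.82 times (4.33 to 5.37). No difference in this ratio was detectable at this depth, the factor of subclone2 over the parent being 1.03 (0.901 to 1.17) and that of subclone1 1.08 (0.952 to 1.23). For the 3p strands the ratio of hsa-miR-193b-3p to hsa-miR-193a-3p was 6.74 (5.87 to 7.77), 4.47 (3.83 to 5.24) and 3.67 (3.10 to 4.36). Here both subclones lay below the parent, by a factor of 0.664 (0.538 to 0.820) and 0.545 (0.437 to 0.681).

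For miR-365 the ratio of reads between the copies differed between the libraries. hsa-miR-365a-5p had 1.35 (1.24 to 1.47), 1.11 (0.967 to 1.27) and 0.7997 times (0.711 to 0.899) the reads of hsa-miR-365b-5p. Reads of the chromosome 16 strand were thus the more numerous in the parent and those of the chromosome 17 strand in subclone2. Because adapter ligation favours some RNA ends, reads alone cannot tell which strand was the more abundant within a library. The ratio in subclone2 was 0.592 times that in the parent (0.512 to 0.685) and 0.722 times that in subclone1 (0.603 to 0.865). Summed over all strands that can be placed, chromosome 16 gave 3.41, 3.40 and 2.55 times the reads of chromosome 17. This summed ratio in subclone2 was 0.749 times that of the parent (0.690 to 0.814).

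In some comparisons, though not in all, the ratio between members of a cluster differed beyond counting error. How often other pairs of miRNAs do so was not examined. On chromosome 16, hsa-miR-193b-5p had 3.31 times the reads of hsa-miR-365a-5p in the parent library (3.11 to 3.53), then 4.81 (4.35 to 5.33) and 3.85 times (3.50 to 4.25). Subclone1 stood above the parent by a factor of 1.45 (1.29 to 1.64). On chromosome 17, hsa-miR-193a-5p had 0.951 (0.866 to 1.04), 1.05 (0.914 to 1.20) and 0.6398 times (0.564 to 0.725) the reads of hsa-miR-365b-5p. There subclone2 stood apart, by a factor of 0.673 from the parent (0.575 to 0.787). For the 3p strands, the ratio of hsa-miR-193b-3p to miR-365-3p was 2.54, 3.15 and 2.74, or 1.27, 1.58 and 1.37 with both names of miR-365-3p summed. Of its 3 comparisons, subclone1 against the parent alone gave an interval without 1 (1.24, 1.05 to 1.47).

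**Figure D4:**
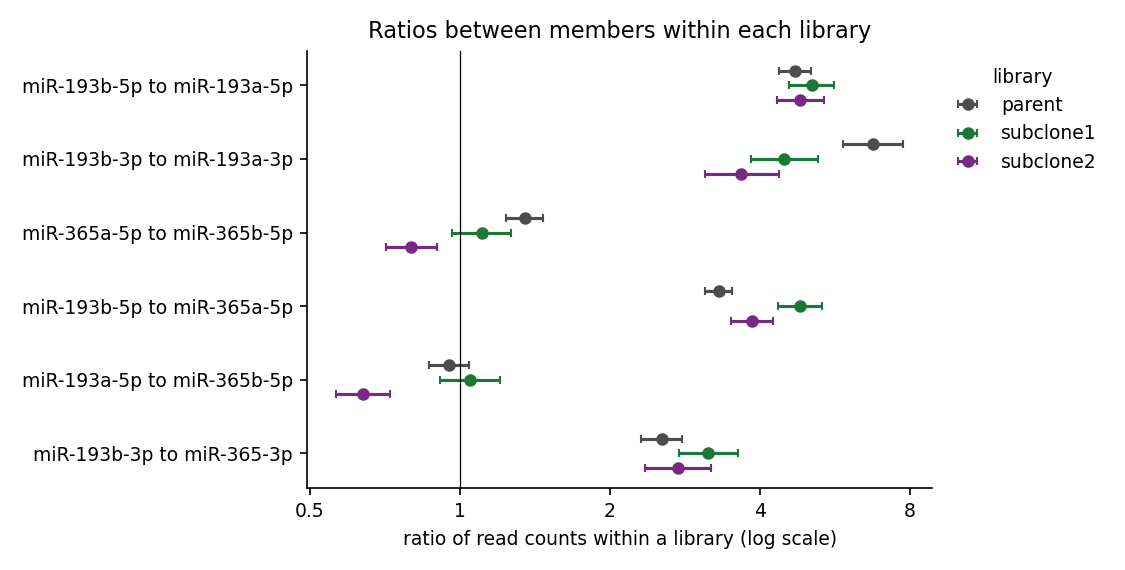
Ratios of read counts between pairs of members within each library (log scale, line at 1), with exact 95% counting intervals. The ratio of miR-365a-5p to miR-365b-5p passes from 1.35 in the parent to 0.7997 in subclone2, while that of miR-193b-5p to miR-193a-5p stays between 4.70 and 5.08.

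The miRNAs with the most similar pattern were sought among 184 other names of 10 CPM or more on average. Likeness was the distance between log2 CPM profiles centred over the 3 libraries, which are few points and a description only. The profile nearest to hsa-miR-193b-5p was that of hsa-miR-148b-3p (distance 0.0062, with 150.3, 173 and 123 CPM). Nearest to hsa-miR-193b-3p was hsa-miR-629-5p (0.073) and to hsa-miR-193a-5p hsa-miR-139-3p (0.062). For hsa-miR-193a-3p it was hsa-miR-1268a (0.031), which also had its lowest level in the parent (69.5, 133.6 and 93.5 CPM). miR-365-3p was nearest to hsa-miR-181a-5p (0.042) and next to hsa-miR-181b-5p (0.051). hsa-miR-365a-5p was nearest to hsa-miR-15a-5p (0.021) and hsa-miR-365b-5p to hsa-miR-320b (0.041).

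Among 14 miRNAs described as tumour suppressors in HCC, the class in which miR-193 is often placed, 6 had enough reads in each comparison. For subclone1 none of the 6 was called against the parent, where their median log2 ratio was -0.16 (0.02 over all kept miRNAs, of which 13% were called). For subclone2 a single one was called lower, beside 10.7% of all called in either direction, and the list's median of -0.18 was near that of all (-0.15). It was hsa-miR-34a-5p, which p53 induces. It had 32.3, 16.5 and 10.5 CPM, a log2 ratio of -1.61 for subclone2 (interval -2.10 to -1.17). Between the subclones none was called, beside 5.76% of all, and the median was -0.18 (-0.17 over all). The most abundant of this list were hsa-miR-101-3p (1230.1, 1091 and 979 CPM), hsa-miR-26a-5p (3564, 1206 and 1366 counts), hsa-miR-29c-3p (234, 267 and 236 CPM) and hsa-miR-22-3p (232, 270.2 and 226 CPM). hsa-miR-29c-3p and hsa-miR-22-3p were, like the miR-193b strands, highest in subclone1.

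Among 14 miRNAs described in brown or beige fat cells, 9 had enough reads, and hsa-miR-34a-5p, which is on both lists, was again the only one called, in subclone2 against the parent (1 of 9, beside 10.7% of all). In the other comparisons 0 of 9 were called, beside 13% and 5.76% of all. Their median log2 ratio was -0.31 for subclone1 and -0.39 for subclone2 over the parent, and -0.23 for subclone2 over subclone1, with 0.02, -0.15 and -0.17 over all kept miRNAs. hsa-miR-27b-3p (984, 1401 and 961 CPM) was highest in subclone1, hsa-miR-378a-3p had 424, 402 and 252 CPM, hsa-miR-93-5p 1129, 819.7 and 859.7 CPM, and hsa-miR-106b-5p 278, 179 and 144.7 CPM. The last of these had a log2 ratio of -0.94 for subclone2 over the parent, just inside 2-fold.

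Finally, miRNAs encoded within 10 Mb of the clusters were counted. Of 39 such names 18 were detected, and 2 had enough reads, both strands of the MIR423 hairpin on chromosome 17. hsa-miR-423-5p had 12564, 13430 and 12163 CPM, and hsa-miR-423-3p 242, 246 and 214.1 CPM. All their log2 ratios lay between -0.20 and 0.10, so that neither was called in a comparison.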

How the data were processed

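Small RNA was sequenced in 3 HCCLM3 strains, with 1 library each (TruSeq Small RNA kit). The authors deposited raw read counts per mature miRNA name, with no scaling. The submitters' processing notes name hg19 and CASAVA 1.4. The trimming, aligner, mismatch limit and treatment of reads matching several miRNAs are not given in the sources used here, and reads of related strands may have been misassigned.

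Counts were scaled to the library total. The log2 ratio had 0.5 counts added to each library. Intervals were Clopper-Pearson for shares and exact conditional for ratios and odds (scipy 1.17.1), at 95%, and cover counting error only, since no molecular identifiers were counted. Shares of all miRNAs called count each name as listed. Alternatives were TMM factors (edgeR 4.0.16), median-of-ratios size factors (DESeq2 1.42.0), the total without the most abundant names, other level minima, another fold threshold and another pseudocount. The procedure was tested on simulated data that held counting error only, so that test does not cover variation between libraries of a strain.

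Named were all members, for each the nearest patterns outside the members (of 3 found, the first or first few are given), and of each list the 4 most abundant and any called. The members and lists were chosen with earlier results of these data known. The strand shares and the ratio of miR-193b-3p to miR-365-3p were planned, and the other ratios between members were chosen after their values were seen.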

Additional observations from a re-analysis of the deposited data

How the results depend on the processing

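With 1 library a strain, no library could be left out and no paired analysis was possible because the strains share no replicates. No member was called at 2-fold under any scaling, minimum level or pseudocount tried. With a threshold of 1.5-fold the members called numbered 1, 1 and 2 in the order subclone1 over parent, subclone2 over parent and subclone2 over subclone1, while the calls over all miRNAs were 56, 50 and 36 instead of 25, 20 and 11. Both calls of miR-365-3p in subclone2 at 1.5-fold rest on scaling to the total, since its ratio lay under 1.5-fold with each other scaling. A minimum of 100 CPM gave 7, 5 and 2 calls over all miRNAs and no minimum gave 67, 75 and 33, as fewer or more names were then kept. Of 84 values of member ratios under other scalings or a pseudocount of 5, 65 stayed within the counting interval of the reported value and 19 moved outside it, 10 of them with TMM and 8 with median-of-ratios factors. The signs of miR-365-3p in subclone1 against the parent and of hsa-miR-365a-5p between the subclones turned with scaling, as given above. Counting both miR-365-3p names moved the log2 ratio of the members' sum only within its interval. As an alternative added after the data were seen, summing both names gave a miR-365 5p share of 64.0, 60.3 and 71.1% and a ratio of miR-193b-3p to miR-365-3p of 1.27, 1.58 and 1.37, with the order of the strains kept. Distances between patterns were the same with TMM to the digits given, because a factor shifts all profiles alike. Depth limits hsa-miR-193a-3p most, with 176 to 233 counts.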
